A study of Zea mays with 20 samples.

Results

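The maize recombinant inbred line RIL118 was compared with the lines RIL39 and RIL71 in the ear internode, the stem segment at the node that bears the ear. All are inbred progeny of F288 x F271, picked for the alleles they hold at 4 loci that affect how much lignin the wall has and how well it is degraded. RIL118 carries the unfavorable allele at the locus in bin 9.02, and RIL39 and RIL71 carry it at the locus in bin 6.06, a bin being a segment of a chromosome on the maize genetic map. Plants grew in the field with irrigation and no treatment. There were 2 arrays for each line at each of 2 stages, emerging tassel and early silking. The comparison used 12 of the 20 arrays, chosen by line name: 4 of RIL118 and 8 of RIL39 and RIL71. The other 8 arrays, of RIL99 and RIL54, the lines with the favorable allele at all 4 loci, entered the estimate of the spread and are quoted as levels. Each class is a small model, since RIL118 is a single line, the class against it is a pair of lines, and recombinant inbred lines of a cross also differ at many places outside the chosen loci. The labels do not say whether the arrays of a group came from separate plants, so p-values measure only the spread between these arrays, which may be technical, and not the spread between lines.

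As background, the grass stem gains most of its stiffness when cells finish elongating and deposit secondary walls of cellulose, arabinoxylan and lignin. Lignin is built from phenylalanine through the phenylpropanoid pathway, whose reductases make monolignols, and laccases and peroxidases then couple these in the wall. How much lignin is laid down, and when relative to flowering, is among the traits that affect how well ruminants digest maize stover.

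RIL118 differed from both lines in the same direction in 1245 of 11033 tested probe sets (11.3%), of which 663 were higher (6.01%) and 582 lower (5.28%) in RIL118. A probe set is the group of array probes for a transcript, and it entered the test if it exceeded a log2 value of 5 on at least 2 of the 20 arrays. It counted as called when limma gave a Benjamini-Hochberg adjusted p at or under 0.05 against RIL39 and against RIL71, each over both stages. Against RIL39, 2721 were called (24.7%), against RIL71 2420 (21.9%), and against the mean of both lines 2894 (26.2%). The contrasts against RIL39 and RIL71 share the 4 RIL118 arrays. The smaller of the differences from RIL39 and from RIL71 was at least 2-fold for 546 of the 1245 and at least 8-fold for 81, 42 higher and 39 lower. For 868 probe sets (7.87%) the call came with RIL118 arrays that lay on the same side of every RIL39 and RIL71 array of their stage, at both stages. The gene annotation covers few probe sets, and among the 808 tested genes with a name 103 were called against both lines (12.7%), 53 higher (6.56%) and 50 lower (6.19%). By probe set rather than gene, 71 of 960 with a name were called with arrays apart at both stages (7.4%). Differences are on the log2 scale, RIL118 minus the other line or lines, and carry the fit's standard error (SE). The median difference from the class over all tested probe sets was 0.04.

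The RIL118 tassel arrays varied most. Their correlation with each other was 0.934, the lowest of the 10 groups, and tassel array 2 correlated more with RIL118 silking array 1 (0.939). The root mean square SD between arrays of a group was 0.61 and 0.41 at tassel and silking in RIL118, against 0.18 and 0.33 in RIL39 and 0.50 and 0.39 in RIL71. The fit gives each probe set a single spread, shared by all 10 groups. Its SE and p-values are therefore too small for genes whose RIL118 arrays vary more than those of the other groups. From the early silking arrays of RIL118 alone, 1002 probe sets were called against both lines. The signal of control probes at the 5′ end of a transcript minus that at the 3′ end, a sign of RNA quality, was -5.39 to -4.51 in RIL118, against -5.97 to -3.77 in RIL39 and RIL71. The lowest values belonged to array 2 of RIL39 at each stage, and without both of those arrays 801 probe sets were called against both lines. Markers of stem with secondary walls were high in all 12 arrays, with means of 11.8 to 13.3 in RIL118, against 11.3 to 13.3 in RIL39 and RIL71. Of 5 matched kernel endosperm markers, 4 were below 5 on all 12 arrays. The other, gz27, was above 5 on all of them, at 5.98 to 9.20 in RIL118, against 6.65 to 8.15 in RIL39 and RIL71. In whole internode tissue, fewer cells of a type and less RNA per cell cannot be told apart.

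The largest rises and falls are taken among called named genes whose RIL118 arrays lay on one side of all class arrays at both stages, by the smaller of the differences from RIL39 and RIL71. The largest rise was in pr5, a thaumatin-like pathogenesis-related protein (probe set Zm.6659.1.A1_at, chromosome 1). It stood at 9.52 and 11.34 at emerging tassel and 8.32 and 11.38 at early silking in RIL118, against a lowest of 2.88, a median of 2.99 and a highest of 3.64 on the 8 arrays of RIL39 and RIL71. Every RIL118 array was far above every array of the class, whose values lay at the low end of the scale. The difference was 6.93 ± 0.53 against RIL39 (adjusted p = 1.34e-06) and 7.20 ± 0.53 against RIL71 (adjusted p = 7.2e-07). RIL99 and RIL54 were low too, with 2.87 ± 0.08 in RIL99 and 2.69 ± 0.38 in RIL54 (SD, n = 4 arrays each over both stages), so that pr5 was high in RIL118 alone among the 5 lines. A probe set for prp4, of the PR-1 protein family (Zm.15280.1.A1_s_at, chromosome 7), read 3.32 and 5.69 at emerging tassel and 1.75 and 6.47 at early silking in RIL118, against a lowest of 1.45, a median of 1.74 and a highest of 2.58 on the 8 arrays of RIL39 and RIL71. One of the silking arrays of RIL118 lay within the range of the class. Its difference was 2.69 ± 0.77 against RIL39 (adjusted p = 0.0228) and 2.43 ± 0.77 against RIL71 (adjusted p = 0.0403), and the call was lost with any 1 of 16 arrays left out (adjusted p 0.0508 to 0.119), and stayed without RIL118 tassel array 1, RIL118 silking array 1 or either RIL54 tassel array. The prp4 call was also lost in the fit of the 12 arrays alone (adjusted p = 0.11), with no filter (0.0808), with array weights (0.0811), without the low-5′ pair of RIL39 arrays (0.144) and from silking arrays of RIL118 alone (0.124). Without RIL118 silking array 2 the difference from the class was 1.38, against 2.56 with all arrays.

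Pathogenesis-related genes moved in both directions. Of 5 measured, 3 rose and 1 fell against both lines, where 6.56% of all named genes rose and 6.19% fell. With any 1 of 16 arrays left out, in the fit of the 12 arrays alone, with no filter and with array weights, pr5 was the single one of the 5 that rose, and rip2 fell in each. The chitinase gene chn1 also rose, at 11.36 to 13.13 in RIL118, against 10.70 to 11.65 in RIL39 and RIL71, a difference of 1.15 from RIL39 and 1.07 from RIL71 (adjusted p = 0.0297 against RIL39 and 0.0437 against RIL71). The largest fall among all named genes was in rip2, a ribosome-inactivating protein of the RNA N-glycosidase type (Zm.389.1.S1_at, chromosome 7). It stood at 2.12 and 2.86 at emerging tassel and 2.15 on both arrays at early silking in RIL118, against a lowest of 4.52, a median of 6.84 and a highest of 8.82 on the 8 arrays of RIL39 and RIL71. No arrays overlapped, and all RIL118 arrays lay near the bottom of the scale. The difference was -4.15 ± 0.40 against RIL39 (adjusted p = 1.24e-05) and -4.20 ± 0.40 against RIL71 (adjusted p = 9.04e-06). The favorable lines resembled RIL118, with 2.16 ± 0.02 in RIL99 and 2.16 ± 0.02 in RIL54 (SD, n = 4 arrays each over both stages). prp2, the remaining member, differed by 0.22 from RIL39 and -0.97 from RIL71 and was not called (adjusted p = 0.881 against RIL39 and 0.461 against RIL71).

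**Figure D1:**
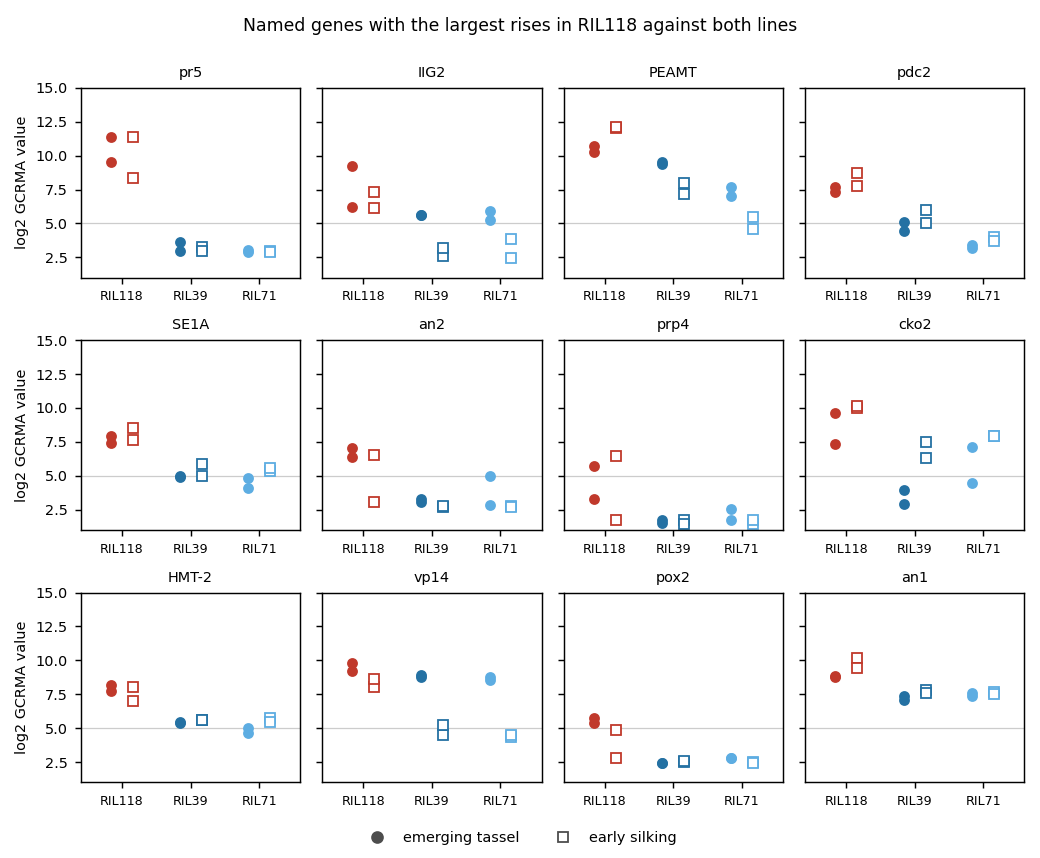
Log2 GCRMA values on each array (y axis) of the 12 named genes with the largest rises in RIL118 among called genes whose arrays were apart at both stages, by line (x axis, RIL118, RIL39, RIL71), with filled circles for emerging tassel, open squares for early silking and a grey line at 5, the level of the filter. All pr5 arrays of RIL118 lie between 8.32 and 11.38, above all class arrays, while single RIL118 silking arrays of an2, prp4 and pox2 lie close to those of the class.

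On the list of 5 gibberellin, brassinosteroid and auxin genes, an1 and an2 rose and abp1 fell, where 6.56% of all named genes rose and 6.19% fell. an2 and an1 encode ent-copalyl diphosphate synthases, an1 for gibberellin and an2 for kauralexin phytoalexins, so that an2 is no gibberellin gene. an1 (Zm.228.1.S1_at, chromosome 1) stood at 8.74 and 8.84 at emerging tassel and 10.18 and 9.46 at early silking in RIL118, against a lowest of 7.09, a median of 7.54 and a highest of 7.79 on the 8 arrays of RIL39 and RIL71. RIL118 lay above both lines at each stage without overlap, with differences of 1.85 ± 0.31 against RIL39 (adjusted p = 0.000882) and 1.76 ± 0.31 against RIL71 (adjusted p = 0.00138). an2 (ZmAffx.12.1.S1_at, chromosome 1) stood at 7.08 and 6.38 at emerging tassel and 6.50 and 3.10 at early silking in RIL118, against a lowest of 2.67, a median of 2.82 and a highest of 4.98 on the 8 arrays of RIL39 and RIL71. Silking array 2 of RIL118 fell within the range of the class, though still above the class arrays of its stage, and the tassel arrays stood apart. The difference was 2.81 ± 0.61 against RIL39 (adjusted p = 0.00524) and 2.43 ± 0.61 against RIL71 (adjusted p = 0.0134). The call was lost without the pair of RIL39 arrays with low 5′ signal (adjusted p = 0.0519) and from silking arrays of RIL118 alone (adjusted p = 0.146). RIL99 at tassel was higher still, at 8.58 and 8.31.

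The gene of abscisic acid synthesis vp14, a 9-cis-epoxycarotenoid dioxygenase (Zm.463.1.A1_at, chromosome 1), read 9.82 and 9.20 at emerging tassel and 8.05 and 8.59 at early silking in RIL118, against 8.54 to 8.94 at emerging tassel and 4.31 to 5.24 at early silking in RIL39 and RIL71. The lines were close at tassel and far apart at silking. Its difference over both stages was 2.05 ± 0.43 against RIL39 (adjusted p = 0.0039) and 2.38 ± 0.43 against RIL71 (adjusted p = 0.00164). By stage it was 0.75 ± 0.52 at emerging tassel (adjusted p = 0.383) and 3.67 ± 0.52 at early silking (adjusted p = 0.000391), while the difference between the stages, 2.92 ± 0.74 (adjusted p = 0.0803), was not called. cko2, a cytokinin oxidase that degrades cytokinins (Zm.9754.1.A1_at, chromosome 3), stood at 7.34 and 9.62 at emerging tassel and 9.998 and 10.12 at early silking in RIL118, against 2.95 to 7.11 at emerging tassel and 6.31 to 7.95 at early silking in RIL39 and RIL71. All RIL118 arrays were above the class at their stage, the lowest by a small margin over RIL71. The difference was 4.10 ± 0.61 against RIL39 (adjusted p = 0.000389) and 2.41 ± 0.61 against RIL71 (adjusted p = 0.0137), and the call was lost without RIL71 tassel array 2 (adjusted p = 0.0511) and at silking alone (adjusted p = 0.0779).

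Cytokinin response genes included 3 called members of 13, all higher in RIL118, where 6.56% of all named genes were higher. The list's median difference from the class was 0.26, against 0.04 over all tested probe sets. All 3 are response regulators, which relay the cytokinin signal or damp it. RR5 (Zm.13810.1.S1_at) stood at 8.61 and 7.98 at emerging tassel and 9.26 and 9.77 at early silking in RIL118, against a lowest of 6.10, a median of 7.30 and a highest of 7.44 on the 8 arrays of RIL39 and RIL71. No array overlapped, and the difference was 1.95 ± 0.23 against RIL39 (adjusted p = 6.36e-05) and 1.60 ± 0.23 against RIL71 (adjusted p = 0.000304). RR7 (Zm.326.1.S1_at, chromosome 4) stood at 6.16 and 5.48 at emerging tassel and 7.64 and 9.38 at early silking in RIL118, against 4.74 to 5.50 at emerging tassel and 5.72 to 7.08 at early silking in RIL39 and RIL71. The silking arrays of RIL118 were above all class arrays, while tassel array 2 was lower than the highest class array of its stage. Its difference was 1.78 ± 0.39 against RIL39 (adjusted p = 0.00533) and 1.25 ± 0.39 against RIL71 (adjusted p = 0.037), and the call was lost without RIL118 tassel array 1, RIL118 silking array 2, either RIL39 tassel array, RIL71 tassel array 1, RIL71 silking array 1 or either RIL99 silking array (adjusted p 0.0509 to 0.151). The RR7 call was also lost in the fit of the 12 arrays alone (adjusted p = 0.0554), with no filter (0.0717), with array weights (0.0557) and without the low-5′ pair of RIL39 arrays (0.068). RR4 (Zm.323.1.S1_at, chromosome 8) stood at 3.56 and 3.64 at emerging tassel and 5.14 and 5.25 at early silking in RIL118, against 3.27 to 3.83 at emerging tassel and 3.32 to 3.64 at early silking in RIL39 and RIL71. It was apart at silking only, its difference over both stages was 0.73 ± 0.21 against RIL39 (adjusted p = 0.0242) and 1.02 ± 0.21 against RIL71 (adjusted p = 0.00419), and the call was lost without either RIL118 tassel array, either RIL118 silking array, RIL39 tassel array 1 or either RIL39 silking array (adjusted p 0.0505 to 0.0844). The RR4 call was also lost with RNA amount as a covariate (adjusted p = 0.0503) and without the low-5′ pair of RIL39 arrays (0.0949). At silking alone its difference was 1.68, against 0.87 over both stages. A second probe set of RR4 was called too, at 1.28 over both stages. By stage it differed by 0.09 at emerging tassel (adjusted p = 0.895) and 2.46 at early silking (adjusted p = 0.000228). The difference between the stages, 2.37, was called (adjusted p = 0.0294). Of the 13, 1 was called without RIL118 tassel array 1, without RIL118 silking array 2, without RIL39 tassel array 1 and without the low-5′ pair of RIL39 arrays.

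Other genes among the largest rises have mixed roles. pdc2, a pyruvate decarboxylase of ethanol fermentation (Zm.10317.1.S1_at, chromosome 8), stood at 7.72 and 7.28 at emerging tassel and 7.73 and 8.73 at early silking in RIL118, against a lowest of 3.22, a median of 4.23 and a highest of 5.96 on the 8 arrays of RIL39 and RIL71. No array overlapped, and the difference was 2.72 ± 0.28 against RIL39 (adjusted p = 1.84e-05) and 4.29 ± 0.28 against RIL71 (adjusted p = 1.74e-07). Its second probe set was called as well, at 2.60. Fermentation as a group did not move together, since of 5 genes pdc2 rose, aldh2, an aldehyde dehydrogenase, fell and 3 were not called. Among all named genes, 6.56% rose and 6.19% fell. aldh2 was at 8.69 to 9.99 in RIL118, against 9.99 to 11.23 in RIL39 and RIL71, a difference of -0.99 from RIL39 and -1.19 from RIL71 (adjusted p = 0.0339 against RIL39 and 0.0155 against RIL71). The aldh2 call was lost without RIL118 tassel array 1, RIL118 silking array 2, either RIL39 tassel array, RIL39 silking array 1 or RIL71 silking array 2 (adjusted p 0.0619 to 0.13). The aldh2 call was also lost in the fit of the 12 arrays alone (adjusted p = 0.0623), with no filter (0.0595), without the low-5′ pair of RIL39 arrays (0.0749) and from silking arrays of RIL118 alone (0.0814).

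PEAMT, phosphoethanolamine N-methyltransferase of choline synthesis (Zm.16907.1.S1_at), stood at 10.71 and 10.30 at emerging tassel and 12.01 and 12.13 at early silking in RIL118, against 7.03 to 9.51 at emerging tassel and 4.56 to 7.95 at early silking in RIL39 and RIL71. RIL118 was above every class array, and the distance was greater at silking. The difference was 2.77 ± 0.28 against RIL39 (adjusted p = 1.88e-05) and 5.09 ± 0.28 against RIL71 (adjusted p = 3.65e-08). HMT-2, a homocysteine S-methyltransferase that makes methionine (Zm.529.1.A1_at, chromosome 1), stood at 7.77 and 8.21 at emerging tassel and 8.07 and 7.03 at early silking in RIL118, against a lowest of 4.61, a median of 5.46 and a highest of 5.75 on the 8 arrays of RIL39 and RIL71. Again no array overlapped, with a difference of 2.24 ± 0.25 against RIL39 (adjusted p = 4.11e-05) and 2.57 ± 0.25 against RIL71 (adjusted p = 1.08e-05). SE1A (Zm.15823.1.A1_at, chromosome 1) stood at 7.94 and 7.41 at emerging tassel and 7.66 and 8.55 at early silking in RIL118, against a lowest of 4.07, a median of 4.99 and a highest of 5.88 on the 8 arrays of RIL39 and RIL71, again without overlap. It differed by 2.70 ± 0.25 against RIL39 (adjusted p = 8.74e-06) and 2.93 ± 0.25 against RIL71 (adjusted p = 3.27e-06), and its level was 5.29 ± 0.65 in RIL99 and 5.18 ± 0.88 in RIL54 (SD, n = 4 arrays each over both stages). IIG2 (Zm.384.1.A1_at, chromosome 5) stood at 9.23 and 6.22 at emerging tassel and 6.16 and 7.29 at early silking in RIL118, against 5.27 to 5.89 at emerging tassel and 2.46 to 3.87 at early silking in RIL39 and RIL71. The tassel values of RIL118 spanned 3 log2 units, and its lower one was just above the class. Its difference was 2.97 ± 0.71 against RIL39 (adjusted p = 0.0092) and 2.85 ± 0.71 against RIL71 (adjusted p = 0.0128), with the call lost without RIL118 tassel array 1, RIL118 silking array 2 or RIL71 silking array 1 (adjusted p 0.0512 to 0.0529). It was also lost without the low-5′ pair of RIL39 arrays (adjusted p = 0.0561).

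**Figure D2:**
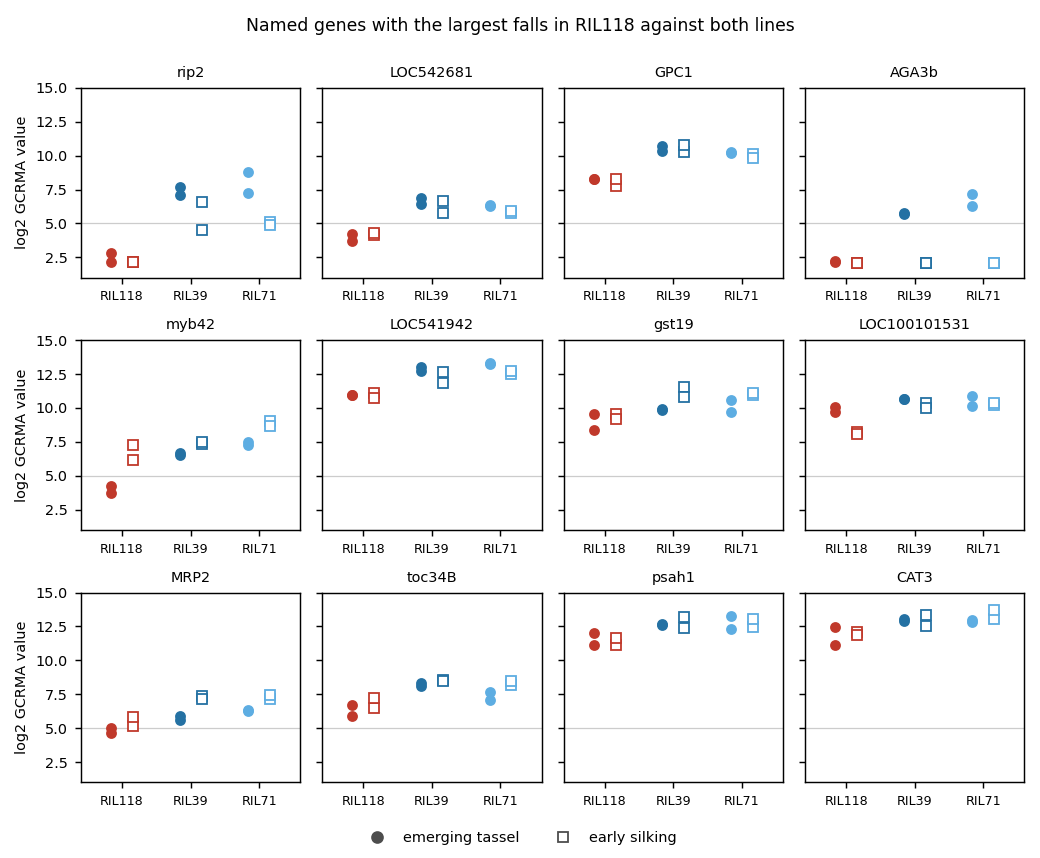
Log2 GCRMA values on each array (y axis) of the 12 named genes with the largest falls in RIL118 among called genes whose arrays were apart at both stages, by line (x axis, RIL118, RIL39, RIL71), with filled circles for emerging tassel, open squares for early silking and a grey line at 5, the level of the filter. rip2 lies below 3 on all RIL118 arrays and above 4 on all class arrays, and AGA3b stands clear at emerging tassel, while all its early silking arrays lie between 2.08 and 2.11.

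Several photosynthesis genes were lower in RIL118. Of 9 measured genes of the photosystems, light harvesting and electron transfer, 5 fell against both lines and none rose, against 6.19% falls among all named genes. The median difference of the 9 from the class was -0.97. psah1, subunit H of photosystem I (Zm.380.1.A1_at, chromosome 6), stood at 11.14 and 12.002 at emerging tassel and 11.16 and 11.67 at early silking in RIL118, against a lowest of 12.35, a median of 12.63 and a highest of 13.28 on the 8 arrays of RIL39 and RIL71. All RIL118 arrays were lower, with differences of -1.22 ± 0.25 against RIL39 (adjusted p = 0.00335) and -1.29 ± 0.25 against RIL71 (adjusted p = 0.00251). lhcb6, a minor antenna protein of photosystem II (Zm.7091.1.A1_at, chromosome 10), stood at 12.27 and 13.48 at emerging tassel and 12.39 and 12.43 at early silking in RIL118, against a lowest of 13.24, a median of 13.81 and a highest of 14.12 on the 8 arrays of RIL39 and RIL71. Only tassel array 2 of RIL118 reached into the range of the class. Its difference was -1.32 ± 0.23 against RIL39 (adjusted p = 0.00125) and -0.96 ± 0.23 against RIL71 (adjusted p = 0.0104), and its other probe sets, at -1.16 and -1.30, were called as well.

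psbs1, the photosystem II subunit needed for non-photochemical quenching (Zm.749.1.S1_at, chromosome 3), stood at 10.16 and 11.25 at emerging tassel and 10.12 and 10.75 at early silking in RIL118, against a lowest of 10.95, a median of 11.99 and a highest of 12.50 on the 8 arrays of RIL39 and RIL71. Tassel array 2 of RIL118 was above the lowest class array, of RIL71 at tassel. Its difference was -1.62 ± 0.33 against RIL39 (adjusted p = 0.00367) and -1.16 ± 0.33 against RIL71 (adjusted p = 0.0254), and the call was lost without RIL118 tassel array 1, RIL118 silking array 1, RIL71 tassel array 2 or either RIL71 silking array (adjusted p 0.0578 to 0.104). The psbs1 call was also lost in the fit of the 12 arrays alone (adjusted p = 0.0537) and with no filter (0.0501). Cab-m7, a chlorophyll a/b-binding protein, was at 13.29 to 14.35 in RIL118, against 13.99 to 14.64 in RIL39 and RIL71, and differed by -0.71 from RIL39 and -0.52 from RIL71 (adjusted p = 0.00636 against RIL39 and 0.0367 against RIL71). psan1, a subunit of photosystem I, was at 12.02 to 12.99 in RIL118, against 12.91 to 13.91 in RIL39 and RIL71, and differed by -1.07 from RIL39 and -0.88 from RIL71 (adjusted p = 0.00565 against RIL39 and 0.0189 against RIL71). The ranges of both genes overlapped with those of the class. The remaining members were not called against both lines. The ferredoxin fdx2 differed by -2.44 from RIL39 and -1.05 from RIL71 and psad1 by -1.32 from RIL39 and -0.58 from RIL71, both called against RIL39 alone. The ferredoxin fdx3 differed by 0.05 from RIL39 and 0.70 from RIL71, called against RIL71 alone, and the reductase fnr1 by 0.05 from RIL39 and 0.32 from RIL71, called against neither. Leaving out 1 array at a time, 2 to 6 of the 9 were called lower, with 2 without RIL118 tassel array 1, RIL118 silking array 1 or either of RIL71 tassel array 2 and RIL71 silking array 2. In a fit of the 12 arrays alone 2 were called, with no filter 3, without the low-5′ pair of RIL39 arrays 4 and from silking arrays of RIL118 alone 5. The mean over the 9 genes was 11.1 to 11.8 on the RIL118 arrays, against 11.5 to 12.6 on the RIL39 and RIL71 arrays. It was 11.6 to 12.1 in RIL99 and 11.3 to 11.8 in RIL54, so that RIL54 lay at the level of RIL118.

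Enzymes of carbon fixation gave fewer calls in the same direction. Of 11 C4 and Calvin cycle genes, gpa1 and rbcs1 fell against both lines and none rose (6.19% of all named genes fell), with a median difference of -0.78. Against the mean of both lines 6 were called lower (14.4% of all named genes were) and 1, pep4, higher. The mean over the 11 genes was 9.34 to 10.1 in RIL118, against 9.60 to 11.5 in RIL39 and RIL71. It was 9.67 to 10.5 in RIL99 and 9.20 to 10.2 in RIL54, the latter much as in RIL118. gpa1, the chloroplast glyceraldehyde-3-phosphate dehydrogenase, was at 10.16 to 11.32 in RIL118, against 11.19 to 12.20 in RIL39 and RIL71. rbcs1, the Rubisco small subunit, was at 11.996 to 13.35 in RIL118, against 12.89 to 13.84 in RIL39 and RIL71. The ranges overlapped with the class for both. gpa1 differed by -1.34 ± 0.29 against RIL39 (adjusted p = 0.00536) and -0.92 ± 0.29 against RIL71 (adjusted p = 0.0409). rbcs1 differed by -0.94 ± 0.19 against RIL39 (adjusted p = 0.00325) and -0.58 ± 0.19 against RIL71 (adjusted p = 0.0468). Of the 11, 0 fell against both lines with any 1 of 11 arrays left out, with no filter, with quantile normalization and in the fit of the 12 arrays alone, and 3 fell without RIL118 tassel array 2 and without RIL71 tassel array 1. Ppdk1, the C4 pyruvate phosphate dikinase, differed by -2.09 from RIL39 and -0.61 from RIL71 on the probe set used for the list and was called against RIL39 alone. Of its 3 other probe sets, 1 was called lower against both lines, at -0.67 (adjusted p = 0.0322) and -0.94 (adjusted p = 0.00604). The gpa1 call was lost with any 1 of 11 arrays left out (adjusted p 0.0526 to 0.16), and stayed without RIL118 tassel array 2, RIL118 silking array 2, either RIL39 silking array, RIL71 tassel array 1, either RIL54 tassel array or either RIL54 silking array. The gpa1 call was also lost in the fit of the 12 arrays alone (adjusted p = 0.0733), with no filter (0.0748), with quantile normalization (0.0515), without the low-5′ pair of RIL39 arrays (0.0676) and from silking arrays of RIL118 alone (0.11). The rbcs1 call was lost with any 1 of 15 arrays left out (adjusted p 0.0511 to 0.165), and stayed without RIL118 tassel array 2, RIL118 silking array 2, RIL71 tassel array 1 or either RIL54 silking array. The rbcs1 call was also lost in the fit of the 12 arrays alone (adjusted p = 0.0987), with no filter (0.0711), with quantile normalization (0.0868), with RNA amount as a covariate (0.0597), with array weights (0.0771) and without the low-5′ pair of RIL39 arrays (0.0835). pep1, the C4 phosphoenolpyruvate carboxylase, read 4.27 and 5.63 at emerging tassel and 3.16 and 5.88 at early silking in RIL118, against a lowest of 5.59, a median of 7.70 and a highest of 9.99 on the 8 arrays of RIL39 and RIL71. It was lower than RIL39 by a difference of -4.29 (adjusted p = 0.00499) and differed from RIL71 by -1.36 without a call.

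Leaf markers were read beside these counts. The 6 matched leaf photosynthesis markers, which include genes of these lists, had means of 9.05 to 10.1 in RIL118, against 9.83 to 11.8 in RIL39 and RIL71. The 4 matched leaf epidermis markers had means of 5.49 to 7.17 in RIL118, against 5.32 to 7.20 in RIL39 and RIL71, and gl1 among them was below 5 on all 12 arrays. ME1, another of the leaf photosynthesis markers, was near the bottom of the scale on all RIL118 arrays, at 2.58 to 2.67, against 2.62 to 5.13 in RIL39 and RIL71. The part of leaf tissue in these values was not tested. toc34B, a receptor for protein import into chloroplasts (Zm.262.1.S1_at, chromosome 1), was also among the largest falls. It stood at 5.90 and 6.72 at emerging tassel and 6.49 and 7.19 at early silking in RIL118, against 7.06 to 8.30 at emerging tassel and 8.15 to 8.58 at early silking in RIL39 and RIL71. RIL118 was below the class at each stage, with differences of -1.79 ± 0.22 against RIL39 (adjusted p = 7.78e-05) and -1.26 ± 0.22 against RIL71 (adjusted p = 0.0012).

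**Figure D3:**
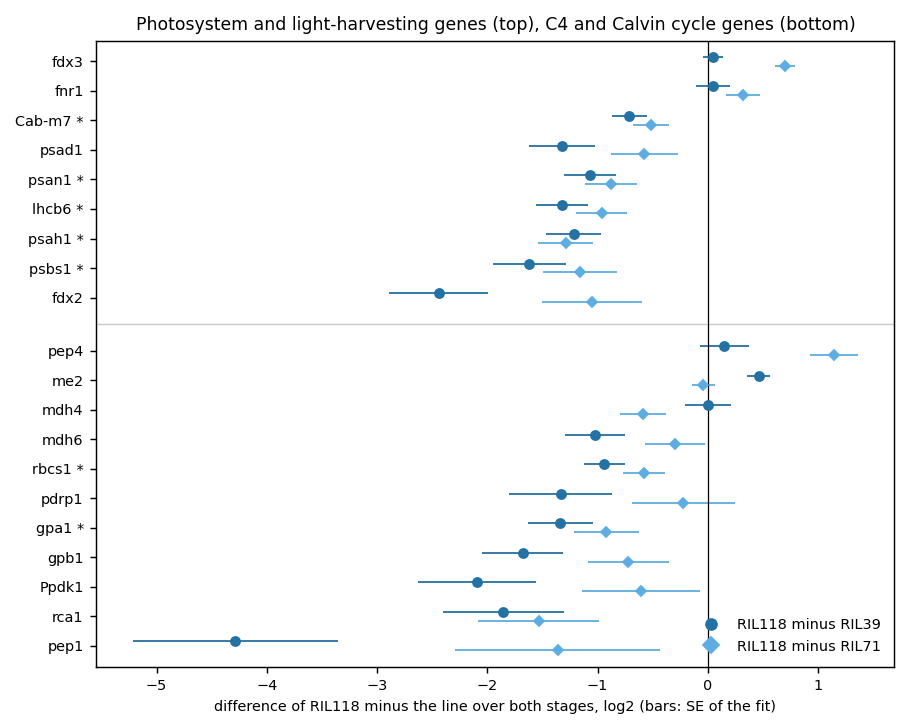
Differences of RIL118 from RIL39 (circles) and from RIL71 (diamonds) over both stages (x axis, log2, bars are the SE of the fit) for 9 photosystem and light-harvesting genes (top) and 11 C4 and Calvin cycle genes (bottom), with an asterisk for genes called against both lines. The 5 photosystem genes and 2 carbon fixation genes with an asterisk lie left of 0 in both contrasts.

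Of 8 genes on the 3 lignin lists, BM1 and pox2 were called against both lines, both higher in RIL118, where 6.56% of all named genes were called higher. All 8 differences from the class were positive over all arrays, as were those of 448 of the 808 named genes. Medians were 0.37 for the entry enzymes, 0.38 for monolignol genes and 1.04 for the coupling of monolignols. The differences of ccr2 and LAC1 changed sign with single arrays left out. The entry enzymes PAL1, phenylalanine ammonia-lyase, and 4CL, 4-coumarate:CoA ligase, were not called against both lines, and of 3 measured monolignol genes 1 was. PAL1 stood at 14.09 and 13.85 at emerging tassel and 13.96 and 13.83 at early silking in RIL118, against a lowest of 13.64, a median of 13.76 and a highest of 13.86 on the 8 arrays of RIL39 and RIL71, and differed by 0.18 from RIL39 and 0.18 from RIL71 (adjusted p = 0.269 against RIL39 and 0.248 against RIL71). 4CL stood at 13.06 on both arrays at emerging tassel and 13.14 and 12.32 at early silking in RIL118, against 12.54 to 13.48 at emerging tassel and 10.57 to 12.30 at early silking in RIL39 and RIL71. It was called against RIL39, at 1.05 ± 0.28 (adjusted p = 0.0163), and not against RIL71. The ranges of RIL118 and the class overlapped for both genes.

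BM1, the cinnamyl alcohol dehydrogenase whose loss gives the brown midrib1 mutant (Zm.64.1.A1_at, chromosome 5), rose against both lines by a small amount. It stood at 14.02 on both arrays at emerging tassel and 13.70 and 13.56 at early silking in RIL118, against 13.63 to 13.85 at emerging tassel and 12.88 to 13.39 at early silking in RIL39 and RIL71. RIL118 was above the class at each stage, with differences of 0.46 ± 0.10 against RIL39 (adjusted p = 0.00385) and 0.31 ± 0.10 against RIL71 (adjusted p = 0.0384). The call was lost with any 1 of 11 arrays left out (adjusted p 0.0568 to 0.113), and stayed without either RIL39 silking array, RIL71 tassel array 2, either RIL99 tassel array, either RIL54 tassel array or either RIL54 silking array. The BM1 call was also lost with median centring (adjusted p = 0.065), with array weights (0.075), without the low-5′ pair of RIL39 arrays (0.0719) and from silking arrays of RIL118 alone (0.16). cncr1, a cinnamoyl-CoA reductase, stood at 13.85 and 13.87 at emerging tassel and 14.01 and 13.78 at early silking in RIL118, against a lowest of 13.06, a median of 13.47 and a highest of 13.69 on the 8 arrays of RIL39 and RIL71. All RIL118 arrays were above the class, and the difference, called against RIL39 alone, was 0.55 ± 0.15 against RIL39 (adjusted p = 0.0181) and 0.32 ± 0.15 against RIL71 (adjusted p = 0.149). The other reductase, ccr2, stood at 6.88 and 3.41 at emerging tassel and 2.78 and 2.73 at early silking in RIL118, against 4.06 to 6.36 at emerging tassel and 2.79 to 3.10 at early silking in RIL39 and RIL71, and was not called (adjusted p = 0.8 against RIL39 and 0.922 against RIL71). Its tassel arrays differed by more than 3 log2 units within RIL118, and its difference changed sign with the arrays used.

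myb42, a MYB factor that represses phenylpropanoid genes when overexpressed (Zm.9667.1.A1_at, chromosome 4), was among the largest falls. It stood at 4.25 and 3.77 at emerging tassel and 7.26 and 6.15 at early silking in RIL118, against 6.51 to 7.51 at emerging tassel and 7.37 to 9.07 at early silking in RIL39 and RIL71. RIL118 was lower than every class array of its stage, with the greater distance at tassel. The difference over both stages was -1.67 ± 0.25 against RIL39 (adjusted p = 0.000367) and -2.76 ± 0.25 against RIL71 (adjusted p = 4.63e-06), and with RIL118 at silking alone it was -1.45 and lost the call (adjusted p = 0.186). RIL99 was also low at tassel, at 3.84 and 4.10. The other factor measured, myb31, differed by -0.26 from RIL39 and 0.82 from RIL71 (adjusted p = 0.539 against RIL39 and 0.052 against RIL71).

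Of 3 genes for the coupling of monolignols, 1 was called, where 12.7% of all named genes were. pox2, a class III peroxidase (Zm.315.1.A1_at, chromosome 1), stood at 5.74 and 5.35 at emerging tassel and 4.86 and 2.77 at early silking in RIL118, against a lowest of 2.41, a median of 2.51 and a highest of 2.79 on the 8 arrays of RIL39 and RIL71. The tassel arrays of RIL118 were clear of the class, and silking array 2 was within its range. It differed by 2.19 ± 0.33 against RIL39 (adjusted p = 0.000456) and 2.05 ± 0.33 against RIL71 (adjusted p = 0.000816). At silking alone the difference from the class was 1.29 and the call was lost (adjusted p = 0.102). The peroxidase PER42 stood at 10.12 and 11.31 at emerging tassel and 10.95 and 10.38 at early silking in RIL118, against 8.91 to 11.54 at emerging tassel and 8.62 to 9.22 at early silking in RIL39 and RIL71. It was higher than RIL71 and not called against RIL39, with differences of 0.49 from RIL39 and 1.58 from RIL71 (adjusted p = 0.254 against RIL39 and 0.00192 against RIL71). The laccase LAC1 was at 7.56 to 9.70 in RIL118, against 7.47 to 9.36 in RIL39 and RIL71, and was not called (adjusted p = 0.83 against RIL39 and 0.25 against RIL71).

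Among 5 secondary-wall cellulose genes, bk2 was called against both lines, where 12.7% of all named genes were. bk2 encodes a COBRA-like protein whose loss makes maize stalks brittle (Zm.11631.1.A1_at, chromosome 9). It stood at 13.26 and 13.09 at emerging tassel and 12.66 and 11.61 at early silking in RIL118, against 12.05 to 12.62 at emerging tassel and 9.86 to 10.71 at early silking in RIL39 and RIL71. RIL118 was above the class at each stage, with differences of 1.16 ± 0.38 against RIL39 (adjusted p = 0.0427) and 1.44 ± 0.38 against RIL71 (adjusted p = 0.0177). The call was lost with any 1 of 14 arrays left out (adjusted p 0.0519 to 0.164), and stayed without RIL118 silking array 2, RIL71 tassel array 1, either RIL54 tassel array or either RIL54 silking array. The bk2 call was also lost with no filter (adjusted p = 0.0719), with median centring (0.0507), with RNA amount as a covariate (0.089), without the low-5′ pair of RIL39 arrays (0.248) and from silking arrays of RIL118 alone (0.0681). The cellulose synthases cesa10, cesa11 and CesA12, which make secondary-wall cellulose, were not called. cesa10 was at 11.27 to 12.98 in RIL118, against 10.72 to 13.14 in RIL39 and RIL71. cesa11 was at 10.95 to 13.09 in RIL118, against 10.64 to 13.24 in RIL39 and RIL71. CesA12 was at 11.56 to 13.31 in RIL118, against 11.82 to 13.73 in RIL39 and RIL71. All ranges overlapped, and the differences from the class were 0.43 ± 0.29, 0.42 ± 0.30 and -0.15 ± 0.30, in that order. Bk2L3, related to bk2, differed by -0.36 ± 0.18 from the class, and its second probe set by -0.32. None of these passed the threshold against either line.

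**Figure D4:**
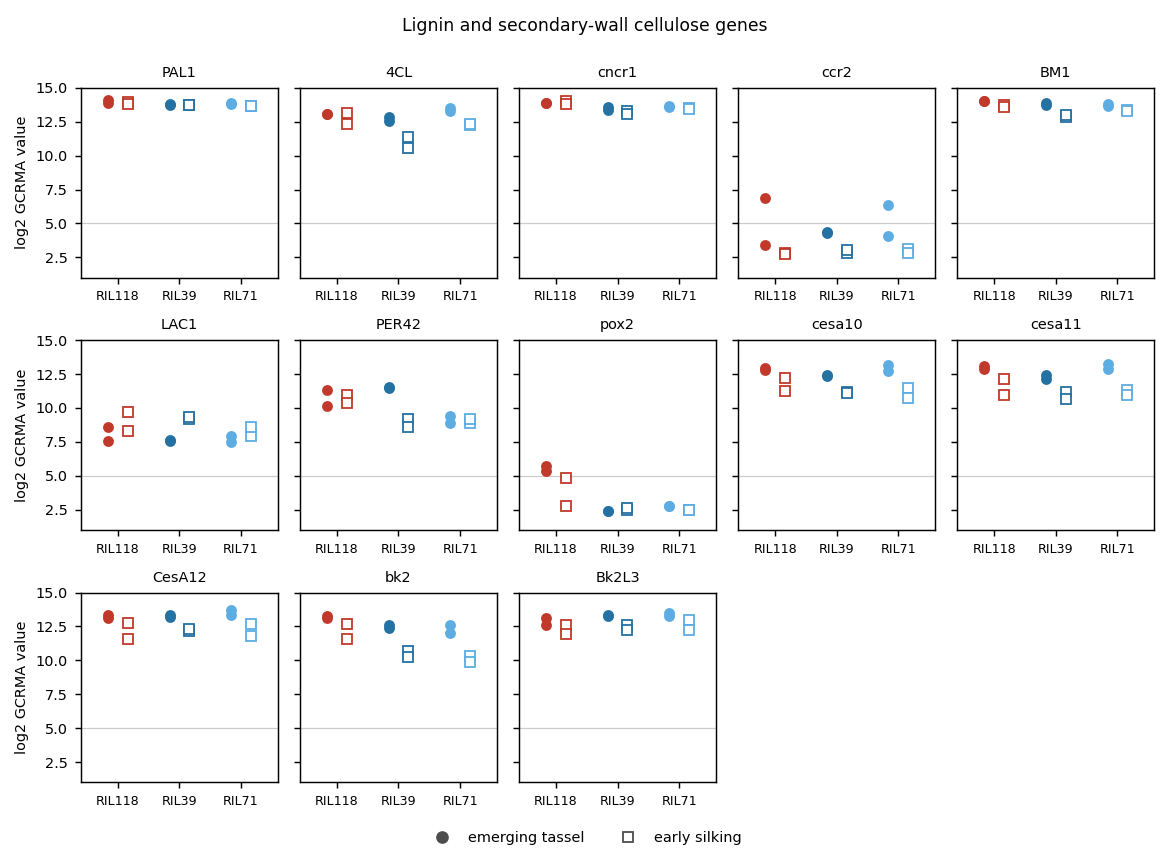
Log2 GCRMA values on each array (y axis) of 13 genes of lignin and secondary-wall cellulose, by line (x axis, RIL118, RIL39, RIL71), with filled circles for emerging tassel, open squares for early silking and a grey line at 5, the level of the filter. PAL1, cncr1 and BM1 lie near the top of the scale in all 3 lines, and pox2 and bk2 are higher in RIL118.

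Other wall genes gave few calls. xet1, a xyloglucan endotransglucosylase of wall loosening (Zm.704.1.S1_at, chromosome 5), stood at 13.18 and 13.52 at emerging tassel and 13.67 and 13.82 at early silking in RIL118, against a lowest of 10.89, a median of 12.25 and a highest of 12.59 on the 8 arrays of RIL39 and RIL71. No array overlapped, and it rose by 1.79 ± 0.21 against RIL39 (adjusted p = 6.83e-05) and 1.23 ± 0.21 against RIL71 (adjusted p = 0.00131). None of 8 expansins, 6 primary-wall cellulose genes and 12 tubulins was called against both lines, where 12.7% of all named genes were. The expansins had a median difference of -0.81, with 3 called lower than the mean of both lines (14.4% of all named genes were).

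In nitrogen metabolism 1 of 8 genes rose and 1 fell, where 6.56% of all named genes rose and 6.19% fell. The 1 that rose and the 1 that fell are cytosolic glutamine synthetases. gln5 (Zm.45.1.A1_at, chromosome 4) stood at 11.15 and 11.43 at emerging tassel and 11.13 and 10.73 at early silking in RIL118, against a lowest of 9.36, a median of 9.71 and a highest of 10.30 on the 8 arrays of RIL39 and RIL71. All arrays were apart, with differences of 1.26 ± 0.17 against RIL39 (adjusted p = 0.000153) and 1.368 ± 0.17 against RIL71 (adjusted p = 8.09e-05). GLN6 (Zm.3455.3.A1_at, chromosome 1) stood at 10.90 and 10.03 at emerging tassel and 8.78 and 9.99 at early silking in RIL118, against 10.49 to 10.999 at emerging tassel and 11.13 to 11.70 at early silking in RIL39 and RIL71. It was lower at silking and overlapped at tassel, with differences of -1.07 ± 0.36 against RIL39 (adjusted p = 0.0484) and -1.21 ± 0.36 against RIL71 (adjusted p = 0.0312) over both stages. The GLN6 call was lost with any 1 of 12 arrays left out (adjusted p 0.0571 to 0.191), and stayed without RIL118 tassel array 1, RIL118 silking array 2, either RIL99 tassel array, either RIL54 tassel array or either RIL54 silking array. The GLN6 call was also lost with no filter (adjusted p = 0.0784), with RNA amount as a covariate (0.0825), with array weights (0.0553) and without the low-5′ pair of RIL39 arrays (0.234). At silking alone its difference was -2.02, against -1.14 over both stages.

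Sucrose synthases, which split sucrose in sink tissue, moved apart. sus2 (Zm.3478.1.S1_a_at, chromosome 1) stood at 10.08 and 8.99 at emerging tassel and 10.53 and 9.86 at early silking in RIL118, against a lowest of 6.83, a median of 7.51 and a highest of 9.12 on the 8 arrays of RIL39 and RIL71. Tassel array 2 of RIL118 was lower than the highest class array, of RIL71 at tassel. It differed by 2.37 ± 0.45 against RIL39 (adjusted p = 0.00229) and 2.18 ± 0.45 against RIL71 (adjusted p = 0.00434). sh1 (Zm.6977.1.S1_at, chromosome 9) stood at 11.45 and 11.32 at emerging tassel and 11.52 and 11.26 at early silking in RIL118, against a lowest of 11.79, a median of 12.37 and a highest of 12.54 on the 8 arrays of RIL39 and RIL71. No array overlapped, and it fell, with differences of -0.93 ± 0.22 against RIL39 (adjusted p = 0.00887) and -0.84 ± 0.22 against RIL71 (adjusted p = 0.0166). The sh1 call was lost without RIL118 silking array 2, RIL71 tassel array 1 or RIL71 silking array 2 (adjusted p 0.0602 to 0.0638) and at silking alone (adjusted p = 0.0955). The other 5 of 7 sucrose genes were not called against both lines (12.7% of all named genes were). The starch gene zpu1, a pullulanase, was at 5.83 to 6.38 in RIL118, against 4.82 to 5.25 in RIL39 and RIL71, and rose by 0.86 ± 0.19 against RIL39 (adjusted p = 0.00599) and 1.06 ± 0.19 against RIL71 (adjusted p = 0.00169). The call was lost without the low-5′ pair of RIL39 arrays (adjusted p = 0.0533). The other 7 starch genes were not called.

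On the list of 6 genes for the defensive benzoxazinoids, glu1 and TSB1 fell, where 6.19% of all named genes did. glu1, the beta-glucosidase that releases benzoxazinoids from their glucosides (Zm.3633.1.A1_at, chromosome 10), stood at 8.71 and 10.69 at emerging tassel and 3.82 and 2.70 at early silking in RIL118, against 8.93 to 12.99 at emerging tassel and 6.81 to 9.71 at early silking in RIL39 and RIL71. The stages differed, with overlap at tassel and RIL118 far lower at silking. The difference over both stages was -2.79 ± 0.67 against RIL39 (adjusted p = 0.00927) and -3.97 ± 0.67 against RIL71 (adjusted p = 0.00109). From silking arrays of RIL118 alone it was -5.51, against -3.38 over both stages, and the call was lost without the low-5′ pair of RIL39 arrays (adjusted p = 0.0639). RIL99 at silking was lower still, at 2.08 and 2.09. TSB1, a tryptophan synthase beta subunit and so not an enzyme of benzoxazinoids themselves (Zm.17.1.A1_at, chromosome 4), stood at 7.69 and 8.63 at emerging tassel and 7.14 and 7.91 at early silking in RIL118, against a lowest of 8.45, a median of 9.65 and a highest of 10.21 on the 8 arrays of RIL39 and RIL71. The ranges overlapped at tassel, and the difference was -1.53 ± 0.31 against RIL39 (adjusted p = 0.00323) and -1.81 ± 0.31 against RIL71 (adjusted p = 0.00111). bx1, the first enzyme of the pathway, differed by 0.77 from RIL39 and 2.71 from RIL71 and was called against RIL71 alone (adjusted p = 0.49 against RIL39 and 0.0207 against RIL71).

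Of 7 antioxidant genes 1 rose and 1 fell, where 6.56% of all named genes rose and 6.19% fell. The 1 that rose and the 1 that fell are catalases, which break down hydrogen peroxide. CAT3 (Zm.3066.1.A1_at, chromosome 4) stood at 11.12 and 12.43 at emerging tassel and 12.08 and 11.90 at early silking in RIL118, against a lowest of 12.54, a median of 13.003 and a highest of 13.69 on the 8 arrays of RIL39 and RIL71. All RIL118 arrays were lower, with differences of -1.09 ± 0.28 against RIL39 (adjusted p = 0.0126) and -1.24 ± 0.28 against RIL71 (adjusted p = 0.00693), and the call was lost without RIL39 silking array 1 (adjusted p = 0.0569). cat1 (Zm.6357.1.S1_at, chromosome 5) was at 11.36 to 11.70 in RIL118, against 10.67 to 11.18 in RIL39 and RIL71, without overlap, and rose by 0.63 ± 0.14 against RIL39 (adjusted p = 0.00552) and 0.69 ± 0.14 against RIL71 (adjusted p = 0.00339). The cat1 call was lost without the low-5′ pair of RIL39 arrays (adjusted p = 0.0955). Of 16 glutathione transferases 1 was called (12.7% of all named genes were), gst19 (Zm.548.1.S1_at, chromosome 6). It stood at 8.35 and 9.57 at emerging tassel and 9.54 and 9.18 at early silking in RIL118, against 9.72 to 10.62 at emerging tassel and 10.83 to 11.57 at early silking in RIL39 and RIL71. RIL118 was lower than the class at each stage, with differences of -1.371 ± 0.35 against RIL39 (adjusted p = 0.012) and -1.44 ± 0.35 against RIL71 (adjusted p = 0.0105). The gst19 call was lost without RIL118 tassel array 1 or RIL39 silking array 1 (adjusted p 0.0514 to 0.0538). MRP2, an ABC transporter (Zm.12332.2.S1_a_at, chromosome 7), stood at 4.65 and 4.98 at emerging tassel and 5.18 and 5.82 at early silking in RIL118, against 5.58 to 6.32 at emerging tassel and 7.14 to 7.47 at early silking in RIL39 and RIL71. It was lower at each stage without overlap, with differences of -1.34 ± 0.18 against RIL39 (adjusted p = 0.000216) and -1.64 ± 0.18 against RIL71 (adjusted p = 3.92e-05).

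GPC1, a cytosolic glyceraldehyde-3-phosphate dehydrogenase of glycolysis, fell on 1 of its probe sets. On Zm.3765.2.S1_at (chromosome 4) it stood at 8.30 and 8.27 at emerging tassel and 7.76 and 8.27 at early silking in RIL118, against a lowest of 9.84, a median of 10.29 and a highest of 10.76 on the 8 arrays of RIL39 and RIL71. No array overlapped, and the difference was -2.39 ± 0.19 against RIL39 (adjusted p = 1.46e-06) and -1.96 ± 0.19 against RIL71 (adjusted p = 7.94e-06). RIL99 was low and RIL54 high, with 7.80 ± 0.22 in RIL99 and 10.32 ± 0.28 in RIL54 (SD, n = 4 arrays each over both stages). The other probe set of GPC1, Zm.3765.1.S1_s_at, differed from the class by -0.04 and was not called. LOC541942 (Zm.16994.2.A1_a_at, chromosome 1) stood at 10.98 and 10.94 at emerging tassel and 11.13 and 10.70 at early silking in RIL118, against a lowest of 11.86, a median of 12.71 and a highest of 13.30 on the 8 arrays of RIL39 and RIL71. It was lower, with differences of -1.61 ± 0.18 against RIL39 (adjusted p = 4.14e-05) and -2.01 ± 0.18 against RIL71 (adjusted p = 4.9e-06), whereas its other probe set differed by -0.22 and was not called against both lines. None of 12 glycolysis genes was called when each was read at its brightest probe set (12.7% of all named genes were).

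The 3 remaining genes among the largest falls have no role given here. LOC542681, also called SI397 (Zm.17835.1.S1_at, chromosome 3), stood at 4.22 and 3.74 at emerging tassel and 4.16 and 4.31 at early silking in RIL118, against a lowest of 5.76, a median of 6.32 and a highest of 6.86 on the 8 arrays of RIL39 and RIL71. No array overlapped. The difference was -2.33 ± 0.40 against RIL39 (adjusted p = 0.0011) and -1.98 ± 0.40 against RIL71 (adjusted p = 0.00359), with a call that was lost at silking alone (adjusted p = 0.0777). LOC100101531 (Zm.12201.1.A1_at, chromosome 1) stood at 9.73 and 10.11 at emerging tassel and 8.26 and 8.10 at early silking in RIL118, against 10.13 to 10.90 at emerging tassel and 9.97 to 10.40 at early silking in RIL39 and RIL71. It was lower at each stage, with differences of -1.38 ± 0.16 against RIL39 (adjusted p = 6.73e-05) and -1.36 ± 0.16 against RIL71 (adjusted p = 7.34e-05), and by -2.07 against the class at silking alone. AGA3b (Zm.19172.1.A1_at, chromosome 1) stood at 2.19 and 2.21 at emerging tassel and 2.08 on both arrays at early silking in RIL118, against 5.72 to 7.20 at emerging tassel and 2.08 to 2.11 at early silking in RIL39 and RIL71. All arrays of the 3 lines lay between 2.08 and 2.11 at silking. Its difference over both stages was -1.78 ± 0.24 against RIL39 (adjusted p = 0.000151) and -2.27 ± 0.24 against RIL71 (adjusted p = 1.83e-05). From silking arrays of RIL118 alone it was -0.016 and the call was lost (adjusted p = 0.99).

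Chromatin genes had 4 calls of 23, all higher in RIL118, where 6.56% of all named genes were higher. The list's median difference was 0.26. hac106, a histone acetyltransferase (Zm.472.1.S1_at, chromosome 7), stood at 4.88 and 5.30 at emerging tassel and 5.39 and 5.75 at early silking in RIL118, against a lowest of 3.38, a median of 3.81 and a highest of 4.03 on the 8 arrays of RIL39 and RIL71. No array overlapped, and it rose by 1.57 ± 0.19 against RIL39 (adjusted p = 6.21e-05) and 1.53 ± 0.19 against RIL71 (adjusted p = 7.4e-05). hda101, a histone deacetylase (Zm.398.1.S1_at, chromosome 4), stood at 10.55 and 10.61 at emerging tassel and 10.31 and 10.38 at early silking in RIL118, against a lowest of 9.56, a median of 9.68 and a highest of 10.05 on the 8 arrays of RIL39 and RIL71. It too was apart on all arrays, with differences of 0.72 ± 0.09 against RIL39 (adjusted p = 7.78e-05) and 0.72 ± 0.09 against RIL71 (adjusted p = 7.66e-05). The linker histone his1 was at 8.24 to 9.33 in RIL118, against 6.22 to 7.94 in RIL39 and RIL71 on Zm.6393.1.A1_x_at, and differed by 1.08 ± 0.31 against RIL39 (adjusted p = 0.0216) and 1.77 ± 0.31 against RIL71 (adjusted p = 0.00131). The his1 call was lost without RIL118 tassel array 1, RIL118 silking array 2, either RIL39 tassel array or RIL39 silking array 2 (adjusted p 0.0599 to 0.0841). The his1 call was also lost without the low-5′ pair of RIL39 arrays (adjusted p = 0.129). A second his1 probe set differed by 3.99 and was called, at 1.49 against RIL39 and 6.49 against RIL71. Its means were 10.05 in RIL118, 8.56 in RIL39 and 3.56 in RIL71. Another his1 probe set differed by 0.20 and was not called, so the size is uncertain. Whether these probe sets bind near-identical histone copies was not tested. The fourth gene, hon102, another linker histone, was at 12.58 to 13.31 in RIL118, against 12.26 to 12.72 in RIL39 and RIL71, a difference of 0.56 from RIL39 and 0.61 from RIL71 (adjusted p = 0.0198 against RIL39 and 0.0141 against RIL71). Leaving out 1 array at a time, 2 to 5 of the 23 were called, with 2 without RIL118 tassel array 1, either RIL39 tassel array or RIL39 silking array 2, and without the low-5′ pair.

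A further 7 genes were the only called members of their lists in their direction, where 6.56% of all named genes rose and 6.19% fell. The aquaporin tip2a, of the vacuole membrane, 1 of 17 on the aquaporin list, stood at 11.24 and 12.26 at emerging tassel and 11.95 and 11.34 at early silking in RIL118, against 8.52 to 12.25 at emerging tassel and 8.22 to 11.51 at early silking in RIL39 and RIL71. RIL39 was low at tassel and RIL71 at silking, so neither stage was free of overlap, and the difference was 1.76 ± 0.30 against RIL39 (adjusted p = 0.00106) and 1.21 ± 0.30 against RIL71 (adjusted p = 0.0126). The tip2a call was lost without RIL71 silking array 2 (adjusted p = 0.0538) and at silking alone (adjusted p = 0.515). Aquaporins that the list left out were Lsi1, Lsi6, PIP1-1, PIP1-3 and pip2-5, and of these Lsi6, a silicon channel, fell, with differences of -1.30 from RIL39 (adjusted p = 0.0151) and -1.13 from RIL71 (adjusted p = 0.034). The iron-phytosiderophore transporter ys1, 1 of 4 metal transport genes, was at 5.39 to 7.42 in RIL118, against 2.79 to 7.02 in RIL39 and RIL71. It differed by 1.52 from RIL39 and 1.44 from RIL71 (adjusted p = 0.0236 against RIL39 and 0.0333 against RIL71), more at tassel than at silking, and the call was lost with any 1 of 11 arrays left out (adjusted p 0.0595 to 0.116), and stayed without RIL71 tassel array 2, either RIL99 tassel array, either RIL99 silking array, either RIL54 tassel array or either RIL54 silking array. The ys1 call was also lost with no filter (adjusted p = 0.0667), without the low-5′ pair of RIL39 arrays (0.119) and from silking arrays of RIL118 alone (0.776). The difference at silking alone was 0.74.

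opr5, an oxophytodienoate reductase-like gene on the jasmonate list, 1 of 10, was at 10.39 to 11.37 in RIL118, against 7.60 to 10.73 in RIL39 and RIL71, and differed by 2.58 from RIL39 and 0.68 from RIL71 (adjusted p = 4.39e-06 against RIL39 and 0.0478 against RIL71). Its call was lost with any 1 of 13 arrays left out (adjusted p 0.0612 to 0.167), and stayed without RIL118 tassel array 1, RIL118 silking array 2, RIL71 tassel array 1, either RIL54 tassel array or either RIL54 silking array. The opr5 call was also lost in the fit of the 12 arrays alone (adjusted p = 0.0715), with no filter (0.0791), with median centring (0.0513), with array weights (0.0694), without the low-5′ pair of RIL39 arrays (0.083) and from silking arrays of RIL118 alone (0.577). The MADS-box gene zap1, 1 of 9, was at 12.11 to 12.65 in RIL118, against 11.02 to 12.42 in RIL39 and RIL71, and differed by 0.54 from RIL39 and 0.66 from RIL71 (adjusted p = 0.00229 against RIL39 and 0.000568 against RIL71). The difference of zap1 at silking alone was 0.27 and the call was lost (adjusted p = 0.27). The small heat shock protein gene hsp18f, 1 of 5 heat shock genes, was at 3.33 to 5.44 in RIL118, against 2.95 to 4.39 in RIL39 and RIL71, and differed by 0.77 from RIL39 and 0.83 from RIL71 (adjusted p = 0.0359 against RIL39 and 0.0287 against RIL71). Its call was lost without RIL118 tassel array 1, RIL118 silking array 2, either RIL39 tassel array, either RIL39 silking array, RIL71 tassel array 1 or either RIL71 silking array (adjusted p 0.0567 to 0.136). The hsp18f call was also lost in the fit of the 12 arrays alone (adjusted p = 0.0541), with no filter (0.0589), with array weights (0.0569) and without the low-5′ pair of RIL39 arrays (0.113). With RIL118 at silking alone the difference was 1.70, against 0.80 over both stages. The auxin-binding protein gene abp1 fell, at 5.32 to 7.54 in RIL118, against 7.23 to 8.99 in RIL39 and RIL71, with differences of -1.01 from RIL39 and -1.53 from RIL71 (adjusted p = 0.0202 against RIL39 and 0.00196 against RIL71), and its call was lost without RIL118 silking array 2, RIL39 tassel array 1 or RIL39 silking array 1 (adjusted p 0.0639 to 0.068). The abp1 call was also lost in the fit of the 12 arrays alone (adjusted p = 0.0598) and without the low-5′ pair of RIL39 arrays (0.0745). PLC, on the pollen and anther list, rose by 0.50 from RIL39 and 0.61 from RIL71 (adjusted p = 0.0175 against RIL39 and 0.00687 against RIL71), at 9.57 to 10.25 in RIL118, against 9.15 to 9.62 in RIL39 and RIL71, and its call was lost without RIL118 tassel array 1, RIL118 silking array 1 or either RIL39 tassel array (adjusted p 0.0503 to 0.0797). The PLC call was also lost without the low-5′ pair of RIL39 arrays (adjusted p = 0.107).

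Several lists held no gene called against both lines with all arrays, where 12.7% of all named genes were called. These were 11 cytosolic ribosomal protein genes, 11 cell cycle and DNA replication genes and 4 meristem regulators, with median differences of -0.15, -0.03 and 0.23. Without RIL118 tassel array 2, 2 cell cycle genes were called higher and 1 lower, 2 ribosomal protein genes lower and 2 kinesins higher. Without either RIL54 tassel array, 1 cell cycle gene was called higher, 1 lower and 1 meristem regulator higher, and in the fit of the 12 arrays alone 1 cell cycle gene was called lower and 1 meristem regulator higher. Against the mean of both lines 2 of the cell cycle genes were higher and 3 lower, and 1 ribosomal protein gene was higher and 3 lower (14.5% of all named genes were higher and 14.4% lower). The 3 dehydrin and late embryogenesis list members were all above the class (448 of the 808 named genes were). Their median difference was 1.58, and 2.55 at early silking. The dehydrin dhn1 differed by 1.29 from RIL39 and 2.48 from RIL71 and was called against neither line. dhn2, another dehydrin, differed by 0.81 and 0.55 and plt2, which is also on the leaf cuticle list, by 2.21 and 0.95, both called against RIL39 alone. Without RIL71 tassel array 1, 1 of the 3 was called higher. The 3 kinesins were above the class too, with a median of 0.47, and krp15 was called against RIL71 alone. Median differences were 0.32 for 4 leaf epidermis and cuticle genes, 0.07 for 3 kernel proteins and 0.31 for 3 ethylene and alternative oxidase genes, and a2, the flavonoid gene measured, differed by 0.29.

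The differences of greatest size were in probe sets that have no gene in the annotation used. Zm.3284.2.A1_a_at stood at 11.62 and 11.31 at emerging tassel and 11.85 and 12.02 at early silking in RIL118, against a lowest of 2.003, a median of 2.02 and a highest of 2.04 on the 8 arrays of RIL39 and RIL71. It was high in the favorable lines as well, at 10.98 to 11.80 in RIL99 and 10.83 to 11.78 in RIL54, so that only the pair of lines unfavorable at bin 6.06 was near the bottom of the scale. Zm.13324.1.S1_at stood at 10.16 and 9.94 at emerging tassel and 10.57 and 11.08 at early silking in RIL118, against a lowest of 2.16, a median of 2.19 and a highest of 2.24 on the 8 arrays of RIL39 and RIL71. It was high in RIL118 alone among the 5 lines, with 2.17 to 2.21 in RIL99 and 2.16 to 2.20 in RIL54. Zm.15307.1.A1_at stood at 2.28 and 2.32 at emerging tassel and 2.36 on both arrays at early silking in RIL118, against a lowest of 7.23, a median of 11.76 and a highest of 12.51 on the 8 arrays of RIL39 and RIL71. RIL99 was as low as RIL118 and RIL54 was not, with 2.36 to 2.43 in RIL99 and 5.44 to 11.05 in RIL54. Zm.14906.1.A1_s_at stood at 2.56 and 7.58 at emerging tassel and 1.86 and 2.53 at early silking in RIL118, against a lowest of 11.36, a median of 11.52 and a highest of 12.24 on the 8 arrays of RIL39 and RIL71. Tassel array 2 of RIL118 lay between its other arrays and the class, and RIL54 was low, with 9.98 to 11.69 in RIL99 and 2.31 to 2.77 in RIL54. The differences of these probe sets from the class, in the same order, were 9.68 ± 0.11, 8.25 ± 0.09, -8.69 ± 0.41 and -8.03 ± 0.63.

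Presence against near-absence of signal was found for 30 of the 11033 tested probe sets. With all arrays of the high side above 7 and all of the low side below 5, 20 were on in RIL118 and off in both lines, and 10 were off in RIL118 and on in both lines. The single one with a named gene was pr5. Of the 20, 5 were off in all other lines and 6 were on in both favorable lines. Of the 10, 2 were on in all other lines and 3 were off in both favorable lines.

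**Figure D5:**
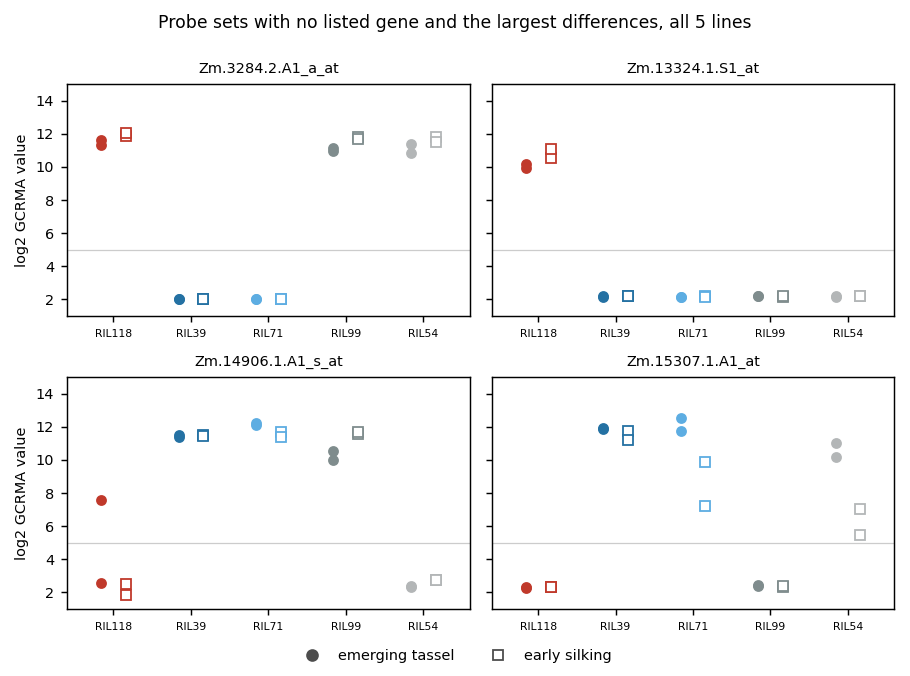
Log2 GCRMA values on each array (y axis) of the 4 probe sets without a listed gene that differed most, for RIL118, RIL39 and RIL71 and beside them RIL99 and RIL54 (x axis), with filled circles for emerging tassel, open squares for early silking and a grey line at 5, the level of the filter. Zm.13324.1.S1_at is high in RIL118 alone, and Zm.3284.2.A1_a_at is low in RIL39 and RIL71 alone.

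Called named probe sets were counted on the chromosomes that carry the loci. Among named probe sets placed on a chromosome, 112 of 923 were called against both lines (12.1%), 54 higher and 58 lower. On chromosome 6 they were 5 of 95 (5.26%), all lower in RIL118, and on chromosome 9 they were 7 of 68 (10.3%), 2 higher and 5 lower. Genes described above with a called probe set on these chromosomes are psah1, gst19 and Ppdk1 on 6 and bk2, sh1 and Lsi6 on 9. Chromosome 4 had 19 of 105 (18.1%). Directions were uneven on chromosome 10, with 9 of 65 called (13.8%) and all lower. They were also uneven on chromosome 5, with 11 of 114 called (9.65%), 10 higher and 1 lower. Probe sets of the same gene count separately here. All lhcb6 probe sets described above are among the 9 on chromosome 10, and both called his1 probe sets are among the 10 on chromosome 5. These counts carry no test, and bins were not placed on the assembly.

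By stage, 1486 probe sets were called between RIL118 and the mean of both lines at emerging tassel (13.5%), 810 higher and 676 lower. At early silking 2148 were called (19.5%), 1091 higher and 1057 lower. The tassel count was 728 without RIL118 tassel array 1 and 943 without RIL39 tassel array 2. The silking count was 1025 without RIL118 silking array 1 and 1332 without RIL118 silking array 2. The difference between the stages was tested as an interaction, the silking minus tassel change in RIL118 minus the mean of that change in RIL39 and RIL71. It was called for 127 probe sets (1.15%), 72 positive and 55 negative. Leaving out RIL118 silking array 1 or 2, RIL39 tassel array 1 or 2, or RIL39 silking array 1 lowered that count to 50, 77, 57, 63 and 68, in that order. Leaving out RIL118 tassel array 1, RIL71 tassel array 2 or either RIL54 tassel array raised it to 237, 259 and 193.

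Of the named genes with the smallest interaction p, the largest values were in AGA3b, at 4.02 ± 0.41 (adjusted p = 0.000353), and PEAMT, at 3.69 ± 0.49 (adjusted p = 0.0031). AGA3b was on at tassel in the class and near 2 on all other arrays of the 3 lines. PEAMT was higher at silking than at tassel in RIL118 and lower at silking in the class. A calmodulin gene (ZmAffx.467.1.A1_at, chromosome 1), whose product binds calcium, stood at 9.55 and 9.14 at emerging tassel and 9.53 and 9.25 at early silking in RIL118, against 8.74 to 9.71 at emerging tassel and 7.25 to 7.79 at early silking in RIL39 and RIL71. It was level between stages in RIL118 and lower at silking in the class, an interaction of 1.72 ± 0.23 (adjusted p = 0.0031). Over both stages it rose by 1.34 ± 0.13 against RIL39 (adjusted p = 1.42e-05) and 0.65 ± 0.13 against RIL71 (adjusted p = 0.00365), and at silking alone the difference from the class was 1.86, against 0.996 ± 0.11 over both.

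NIR, nitrite reductase of nitrate assimilation (Zm.13263.1.A1_at, chromosome 4), stood at 10.32 and 9.66 at emerging tassel and 8.76 and 9.20 at early silking in RIL118, against 8.66 to 10.44 at emerging tassel and 9.84 to 11.19 at early silking in RIL39 and RIL71. It was lower at silking than at tassel in RIL118 and higher in the class, an interaction of -2.02 ± 0.34 (adjusted p = 0.0141), which was lost without RIL118 silking array 1 (adjusted p = 0.0935) and without the low-5′ pair of RIL39 arrays (adjusted p = 0.0777). sum1 (Zm.131.1.A1_at, chromosome 3), stood at 8.15 and 7.69 at emerging tassel and 7.34 and 7.66 at early silking in RIL118, against 6.34 to 7.31 at emerging tassel and 7.81 to 8.52 at early silking in RIL39 and RIL71. RIL118 was higher at tassel and lower at silking, an interaction of -1.89 ± 0.33 (adjusted p = 0.0168), lost without RIL118 silking array 1 or RIL39 tassel array 1 (adjusted p 0.0505 to 0.104). The sum1 interaction was also lost with array weights (adjusted p = 0.0663) and without the low-5′ pair of RIL39 arrays (0.0893). LOC100101531, with the values given above, had an interaction of -1.40 ± 0.28 (adjusted p = 0.0359), lost without RIL118 tassel array 2, either RIL118 silking array, either RIL39 tassel array, RIL39 silking array 1, RIL71 silking array 2 or either RIL99 silking array (adjusted p 0.0537 to 0.12). The LOC100101531 interaction was also lost in the fit of the 12 arrays alone (adjusted p = 0.101), with array weights (0.0633) and without the low-5′ pair of RIL39 arrays (0.0926).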

How the data were processed

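Total RNA of 20 maize ear internode samples was hybridised to an Affymetrix array. The authors deposited a log2 value for each probe set and array, made with GCRMA, per the submitters' processing notes, with a version not given in the sources used here. GCRMA corrects background, normalizes and summarises probes, and compresses differences at low values. The 179 control probe sets were left out. Values were fitted in limma 3.58.1 (R 4.3.3) over all 20 arrays with 10 group means (line by stage) and no replicate block (10 residual and 2.37 prior degrees of freedom). Lines and stages were weighted equally. Benjamini-Hochberg adjustment ran over the 11033 probe sets tested. The number of arrays limits precision.

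Replicate numbers were not taken as pairs, since the labels give no shared source and, over 15 pairs of groups, the correlation of replicate differences ran from -0.244 to 0.512, with 7 above 0.1. GEO's platform annotation names 1 gene for 1452 probe sets, several for 1 and none for 16102. Chromosomes come from the RefSeq gene table of the NAM assembly of B73. No sequences were used here.

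Named genes are the 12 largest rises and falls among called genes whose arrays were apart at both stages (smaller of the differences from RIL39 and RIL71), at most 3 called genes per gene list, the lignin and secondary-wall genes whether called or not, and the 3 rises and 3 falls of smallest interaction p. Lists use each gene's brightest probe set. chn1, Cab-m7, psan1, hon102, Lsi6, the Ppdk1 probe sets and the members of lists described as not called were named after their values were seen. Members and lists were chosen with earlier results of these data known. The fit was tested on simulated data. Alternatives were the replicate block, the 12 arrays alone, other filters, scalings, weights and thresholds, RNA amount as a covariate and left-out arrays. RIL118 at silking alone was added after seeing the data.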

Additional observations from a re-analysis of the deposited data

Results flagged for a closer look

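The stage change differed between RIL118 and the lines RIL39 and RIL71, by the interaction test in limma, for 127 probe sets and for these named genes among them. For AGA3b the difference in stage change was 4.02, for PEAMT it was 3.69 and for the calmodulin gene it was 1.72. For NIR it was -2.02, for sum1 it was -1.89 and for LOC100101531 it was -1.40. Groups of 2 arrays are too small to look for single outlying arrays.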

How the results depend on the processing

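Of the values computed for 76 gene results under 32 alternatives (2416 values), 2074 kept direction and side of the threshold, 334 lost the call, 2 gained it and 6 changed sign. The changes of sign were in uncalled genes: CesA12 without RIL118 silking replicate 2 (0.15, in a range of -0.46 to 0.15 over left-out arrays), LAC1 without the same array (-0.017, in a range to 0.67), ccr2 without RIL118 tassel replicate 1 (-0.78), without RIL71 tassel replicate 2 (-0.20, in a range to 0.96) and with RIL118 at silking alone (-0.19), and sum1 with RIL118 at silking alone (-0.79). For the differences of RIL118 from both lines, from their mean, from RIL39, from RIL71, at tassel, at silking and between stages, in that order, an adjusted p of 0.01 left 629, 1720, 1571, 1341, 676, 1108 and 39 probe sets, and a test against a log2 difference of 1 (treat) left 156, 320, 345, 345, 235, 302 and 15. Both are stricter by construction. Without the pair of RIL39 arrays of lowest 5′ signal, the counts against both lines, against RIL39, at tassel and between stages were 801, 1431, 829 and 42. Array weights gave 746 at tassel and 67 between stages, and a filter at log2 7 gave 77 between stages. The cause of these shifts was not tested. Leaving out 1 array at a time gave 926 to 1563 against both lines, 2091 to 3198 against their mean, 1880 to 3087 against RIL39, 1785 to 2759 against RIL71, 728 to 1740 at tassel, 1025 to 2354 at silking and 50 to 259 between stages. With the replicate block, 1188 probe sets were called against both lines, 1162 of them among the 1245 of the fit without it, and the counts for the other comparisons, in the order above, were 2793, 2614, 2304, 1364, 2051 and 109, none of them off by over 1.5 times. Single genes of this text that lost the call under the block were bk2 (larger adjusted p = 0.054), gpa1 (0.054), opr5 (0.0577), GLN6 (0.0618) and, for its interaction, LOC100101531 (0.0577). The replicate numbers are a shared number and not a shown pairing. With RIL118 at silking alone, 1002 probe sets were called against both lines, 776 of them among the 1245. Low signal limits the size of differences for probe sets near the bottom of the scale on one side, such as pr5, rip2, pox2 and AGA3b.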
